A study of Mus musculus with 4 samples.

Results

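Among CD115hi splenocytes of GM-CSF-treated mice, the Ly6C-MHC II+CD301b- cells (P-III, which the study names pre-GMiDCs) were compared with the Ly6C+ classical monocytes (P-I). The subset of each cell was the one the authors deposited, and it had been set on antibody tags, not on RNA. P-III held 126 cells and P-I 187 cells of the 6804 cells from GM-CSF-treated mice and of 11631 cells in all. The tissue was CD11b+ spleen cells of C57BL/6 mice aged 8 to 12 weeks, profiled by CITE-seq, which counts DNA-tagged antibodies and RNA molecules (UMIs) in the same droplet. Treated mice had received 3 once-daily subcutaneous injections of 10 µg GM-CSF, with cells taken 24 h after the last. Untreated mice gave the steady-state library, in which P-I held 139 cells and P-III 12. The study's supplement prints other cell numbers, fewer for P-I and more for P-III than both libraries hold here. The deposited subsets are thus not the same sets of cells as those counted there. The sources used here do not give the number of mice in a library.

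There was 1 library per condition, so neither a p-value nor a standard error is given, since cells are no replicates. All intervals below are exact 95% intervals that cover counting error only. For each subset the raw UMIs of a gene were added up and scaled to 1e6 UMIs of that subset (CPM). P-III held 739569 UMIs (median 5866 per cell, 4.27% mitochondrial) and P-I 1394605 (median 7232, 5.22% mitochondrial), so that a gene without a UMI in P-III could stand at up to 4.99 CPM. The 2 libraries shared 8 cell barcodes.

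Classical monocytes circulate with high Ly6C and can turn, in inflamed or cytokine-rich tissue, into macrophages or monocyte-derived dendritic cells (DCs). GM-CSF is a cytokine that drives this step in culture, and cells on the DC route usually lose granule and scavenging proteins of the monocyte while they raise MHC class II, the molecules that show peptides to CD4+ T cells. CD301b, a lectin encoded by Mgl2, marks the P-IV cells that the study names GMiDCs.

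The promoters of 4 genes are shown because they carry the sequence classes of the gene groups compared below, 2 of them MHC class II genes, 1 an interferon-response gene and 1 a sterol synthesis gene. Each run gives the 160 bases before the start that RefSeq gives for the gene, on GRCm38.p6, read along the gene's strand. GENCODE places the start of Hmgcs1 further downstream. The capitals mark CCAAT on either strand (the core of the Y box) in H2-Aa and H2-Eb1, overlapping copies of GAAA followed, after 2 bases of any kind, by GAAA (the core of the interferon-stimulated response element) in Isg15, and TCACNCCAC (a sterol regulatory element) in Hmgcs1. H2-Aa lies at chr17:34287824-34287983 (minus strand), H2-Eb1 at chr17:34305707-34305866 (plus), Isg15 at chr4:156200819-156200978 (minus) and Hmgcs1 at chr13:119690191-119690350 (plus).
H2-Aa: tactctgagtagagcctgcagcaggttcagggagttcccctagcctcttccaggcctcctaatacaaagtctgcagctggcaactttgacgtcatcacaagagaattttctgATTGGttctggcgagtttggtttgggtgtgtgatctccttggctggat
H2-Eb1: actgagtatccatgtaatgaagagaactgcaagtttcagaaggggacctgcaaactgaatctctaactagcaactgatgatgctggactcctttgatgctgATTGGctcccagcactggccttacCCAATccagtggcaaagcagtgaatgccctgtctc
Isg15: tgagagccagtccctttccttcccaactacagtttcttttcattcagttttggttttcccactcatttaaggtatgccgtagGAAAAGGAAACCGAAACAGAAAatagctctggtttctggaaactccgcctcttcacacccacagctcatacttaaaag
Hmgcs1: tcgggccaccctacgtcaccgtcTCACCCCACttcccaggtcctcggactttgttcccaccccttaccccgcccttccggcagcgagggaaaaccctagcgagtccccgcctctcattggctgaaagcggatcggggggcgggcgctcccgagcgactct

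The 250 bases before the start were searched on both strands in 32851 RefSeq promoters of 27025 genes. CCAAT was present for 11 of the 13 matched MHC class II genes and for 37.5% of all genes (33.8% of promoters). This GAAA pair was present for 9 of the 18 matched interferon-response genes and for 3.46% of all genes (2.98% of promoters), and TCACNCCAC for 1 of 16 matched sterol genes and for 1.22% of all genes (1.05% of promoters). These are matches of letters and not measured sites of binding.

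The tags were first described as a check of the subsets, without a test, because they set them. The Ly6C tag had a median of 16.5 counts in P-III (2 to 45) and of 105 in P-I (47 to 2107), so the subsets did not overlap. The MHC II tag had a median of 312 in P-III (73 to 2711) and of 171 in P-I (14 to 6975), and CD301b had a median of 10 in P-III (1 to 20) and of 14 in P-I (3 to 143). P-I thus held cells of low and high MHC II and CD301b. The CD115 tag, the M-CSF receptor by which both were picked, had medians of 107 and 111 counts. The RNA followed the labels: Ly6c2, the gene for Ly6C, stood at 2.70 CPM in P-III and 130 CPM in P-I, and H2-Aa, an MHC class II chain, at 4762 and 2771 CPM.

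CD11c, an integrin chain of DCs, had a median tag of 180 counts in P-III (quartiles 132 and 269.75) and 107 in P-I (quartiles 59 and 185), a ratio of means of 1.46 (1.44 to 1.49), and 82.5% of P-III cells (74.8 to 88.7%) lay above the P-I median. This tag too had a lower limit in one subset only. The lowest CD11c count in P-III was 71, and 20 CD115hi cells of no subset that lay within the P-III limits of Ly6C, MHC II and CD301b had CD11c counts of 15 to 69. In P-I, 57 cells lay below 71. The CD11c difference between the subsets was therefore partly fixed by the gates, as was that in MHC II, where 46 P-I cells lay below the lowest P-III count. RNA of Itgax, the CD11c gene, was 1.75-fold higher in P-III (1.44 to 2.13), at 279 against 159 CPM.

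**Figure D1:**
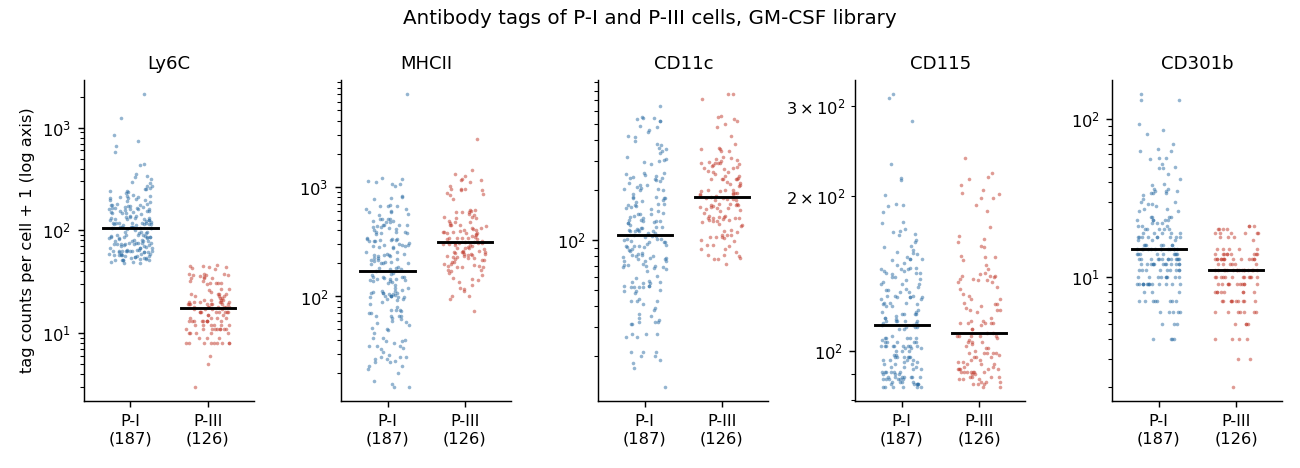
Tag counts per cell plus 1 (log axis) for P-I (187 cells, blue) and P-III (126 cells, red) of the GM-CSF-treated library, 1 point per cell and a bar at the median. The Ly6C counts do not overlap, whereas P-I reaches below and above P-III in MHC II and below it in CD11c.

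P-III held less RNA of the classical monocyte list and more of MHC class II, of a few DC genes and of Mmp12, and a smaller share of its cells was in G2/M. Of 5233 genes with at least 50 UMIs over both subsets, 58 (1.11%) had a CPM at least 2-fold higher in P-III and 142 (2.71%) a CPM at least 2-fold lower, with 0.5 counts added to each sum. The median log2 ratio of all tested genes was 0.02. The counting interval itself lay beyond 2-fold for 7 of the higher genes (Mmp12, Id3, Dapk1, Fgfr1, Kmo, Dok2 and Pltp) and for 32 of the lower ones. Apart from Ly6c2, whose protein set the gates, the lower ratios reached 31.6-fold (Hp) and the higher ones 5.28-fold (Mmp12). In the account below, "called" means past 2-fold by this rule. "Background" means the share of all tested genes so called, 1.11% higher and 2.71% lower unless another is given.

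**Figure D2:**
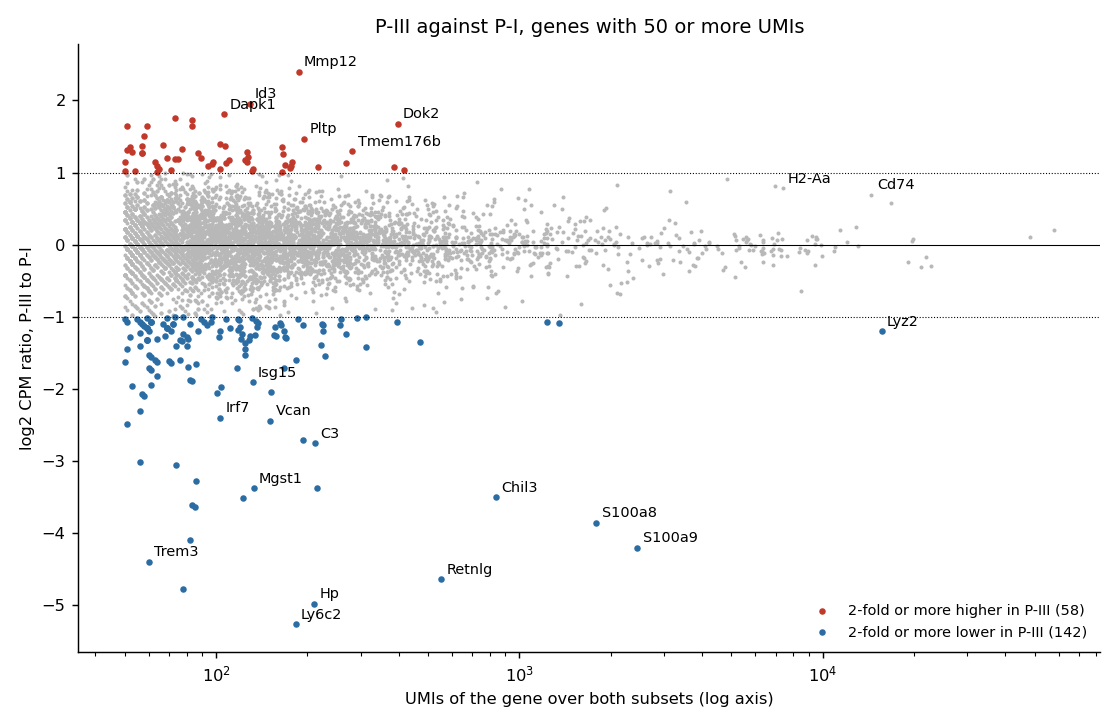
Log2 CPM ratio of P-III to P-I (vertical) against the UMIs of the gene over both subsets (log axis) for 5233 genes, 1 point per gene, with dotted lines at 2-fold. The 142 genes lower in P-III (blue) spread down to Ly6c2 and Hp, while the 58 higher ones (red) end at Mmp12 and H2-Aa and Cd74 lie just under the line.

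Genes of classical monocytes were lower in P-III as a sum. Of 16 list members with enough UMIs, 8 were called lower and none higher (background 2.71% lower), with a median log2 ratio of -1.05. The summed list stood at 9370 CPM in P-III and 17757 CPM in P-I. Ly6c2, 1 of these 8, was counted 2 times in P-III and 181 times in P-I (38.5-fold lower, 13.1 to 399), a difference not independent of the gates, since its protein was the tag that separated the subsets. Hp, haptoglobin, which binds free haemoglobin, had 3 and 208 UMIs (31.6-fold lower, 12.4 to 180). Chil3, a secreted chitinase-like protein, stood at 50.03 CPM in P-III (35.2 to 69.0) and 575 CPM in P-I (536 to 616), 11.3-fold lower (8.27 to 16.4). Mgst1, a glutathione transferase, was 10.4-fold lower, F13a1, a subunit of coagulation factor XIII, 8.11-fold, and the matrix proteoglycan Vcan 5.44-fold (3.19 to 10.8). Lyz2, lysozyme, stood at 3971 CPM in P-III and 9124 CPM in P-I, 2.30-fold lower (2.21 to 2.39). Ccr2, the receptor through which monocytes leave the bone marrow, was not called, at 775 and 710 CPM, nor was Fn1, fibronectin, at 415 and 561 CPM (Ccr2 was chosen after its value was seen).

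Other monocyte products went the same way. Trem3, a receptor of the TREM family, was counted 1 time in P-III and 59 times in P-I (21.0-fold lower, 5.40 to 1256). C3, the central complement component, stood at 20.3 CPM in P-III and 141 CPM in P-I (6.76-fold lower, 4.12 to 12.7), the only 1 of 5 tested complement genes to be called. Gcnt2, a glycosyltransferase, was 5.60-fold lower and Pi16, a peptidase inhibitor, 4.97-fold lower. Genes of the non-classical (Ly6C-) monocyte were not higher in P-III in its place, with a summed list at 1364 CPM in P-III and 1650 CPM in P-I. Of 11 tested, none was called higher and 3 lower (background 1.11% higher and 2.71% lower). The 3 were Pglyrp1, a peptidoglycan-binding protein (11.4-fold), Cx3cr1, the fractalkine receptor (2.62-fold), and Ace, angiotensin-converting enzyme (2.17-fold). Of 7 macrophage genes tested, 0 were called, a count near what the background shares give for so short a list. The summed macrophage list stood at 702 and 724 CPM. Reads of closely similar pairs such as Ly6c1 and Ly6c2, Lyz1 and Lyz2, or H2-DMb1 and H2-DMb2 could be split or lost in the counting. The same could hold for Tmem176a and Tmem176b, whose genes overlap on opposite strands. The single values of these genes are therefore less certain.

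Neutrophil genes made up several of the lowest ratios, and they came from few cells. The list had 10 of 12 tested members called lower in P-III (background 2.71%), and stood at 356 CPM in P-III and 4085 CPM in P-I. S100a9, a calcium-binding protein abundant in neutrophils, stood at 92.0 and 1705 CPM, and Retnlg, a resistin-like protein, at 14.9 and 387 CPM. The 13 P-I cells of RNA clusters 11 and 15, where P-III had 0 of 126 cells, held 96.1% of the P-I UMIs of Retnlg, 91.3% of S100a9 and 90.2% of S100a8. Cluster 11 alone had 44742 CPM of the neutrophil list and 21632 CPM of the MHC class II list in P-I, and Scrublet, a doublet caller, marked 11 of the 13 cells (15 P-I and 2 P-III cells in all). Without clusters 11, 14 and 15, 67 of 5085 genes (1.32%) were called higher and 135 (2.65%) lower. The neutrophil list ratio was then 0.67 instead of 0.09, and Retnlg was 1.07-fold lower. Chil3 was 11.8-fold lower and Hp 30.9-fold lower without them. B cell, T cell, NK cell, erythroid and platelet lists had no member with 50 UMIs, and their summed levels were between 0 and 23.7 CPM in both subsets.

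A few single cells also set ratios. Cxcl10, a chemokine induced by interferon, was 27.4-fold lower in P-III, but 1 P-I cell held 72.7% of its P-I UMIs, and for Cxcl9 1 P-I cell held 55.8%. Lyz1 was 3.14-fold higher, and 1 P-III cell held 78.1% of its UMIs there. The granule genes Camp, Ngp and Ltf likewise had 67.4%, 62.0% and 81.4% of their P-I UMIs in 1 cell.

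Interferon-response genes were lower in P-III as a sum. Of 19 tested, 4 were called lower and none higher (background 2.71% lower), the median log2 ratio was -0.61, and the sum stood at 3365 CPM in P-III and 4890 CPM in P-I (ratio 0.69, 0.66 to 0.72). Irf7, the factor that amplifies interferon genes, had 12.2 CPM in P-III and 67.4 CPM in P-I (5.28-fold lower, 2.80 to 12.5). Isg15, a ubiquitin-like protein whose promoter is shown above, had 21.6 and 83.2 CPM (3.74-fold lower, 2.27 to 6.95). Zbp1, a sensor of Z-form nucleic acid, was 2.37-fold lower, but 1.11-fold higher within clusters shared by both subsets, and Ifi204, a nucleic acid sensor of the interferon-inducible p200 family, 2.17-fold lower. The members with the most UMIs were not called: Ifitm3, a membrane protein that blocks virus entry, stood at 1156 and 1527 CPM, and Ifi27l2a at 684 and 819.6 CPM. Tlr7, the endosomal receptor of single-stranded RNA, was 4.20-fold lower (1.93 to 12.9). Clusters 0, 1, 3, 5 and 10 held 3 of the 44 G2/M cells of P-I and none of the 10 of P-III. The list ratio there was nearer to 1, at 0.82, while in G1 cells it was 0.68. Within cluster 1 the list stood at 3813 CPM in P-III and 3618 CPM in P-I. The cause of these shifts was not tested.

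Mmp12, macrophage metalloelastase, had the largest ratio of the higher genes. It stood at 187 CPM in P-III (157 to 220) and 35.1 CPM in P-I (26.0 to 46.5), 5.28-fold higher (3.81 to 7.52), with 138 and 49 UMIs. At least 1 UMI of it was seen in 33.3% of P-III and 11.2% of P-I cells, against 0.279% of granulocytes of the same library (median 1229 UMIs), and after thinning to 1000 UMIs per cell in 8.87%, 2.19% and 0.154%. Within P-III it was uneven: 89 of the 138 UMIs came from the 20 cells of cluster 0 (722 CPM), while the 71 cells of cluster 1 stood at 55.9 CPM, and 1 cell held 25.4% of the P-III UMIs. Cluster 0 held no P-I cell (0 of 187, at most 1.95%). The 28 P-I cells of cluster 1 had 37.7 CPM.

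Fgfr1, a fibroblast growth factor receptor, had the same split, with 211 CPM in the P-III cells of cluster 0 and 17.0 CPM in those of cluster 1 (3.38-fold higher over all cells, 2.07 to 5.73). In P-I, 10 of its 26 UMIs came from the 12 cells of cluster 11, and without clusters 11, 14 and 15 it was 6.16-fold higher. Id3, an inhibitor of basic helix-loop-helix factors, had the opposite one. It stood at 118 CPM in P-III and 30.1 CPM in P-I (3.88-fold higher, 2.67 to 5.79), and within P-III at 136 CPM in cluster 1 and 40.6 CPM in cluster 0. Since the clusters were built on RNA of these cells, the splits are a description. P-III was thus not uniform in the genes with the highest ratios to P-I.

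Further genes among the 20 highest ratios are given by what they encode. Dapk1, a calmodulin-dependent death-associated kinase, was 3.49-fold higher (2.33 to 5.39). Dok2, an adaptor that dampens tyrosine kinase signals, had the most UMIs of the genes above 3-fold, at 338 CPM (297 to 383) in P-III and 105 CPM (89.1 to 124) in P-I, 3.20-fold higher (2.61 to 3.96). Cd200r1, an inhibitory receptor for CD200, was 3.14-fold higher (1.99 to 5.11) and was called alone among 5 tested costimulation and checkpoint genes. Cd81, a tetraspanin, was 2.62-fold higher, Ddr1, a collagen receptor kinase, 2.59-fold, Adgrl3, an adhesion G protein-coupled receptor, 3.14-fold, and Tcf7l2, a factor of Wnt signalling, 2.45-fold. Slc39a10, a zinc importer, was 2.85-fold and Rab7b, a small GTPase of endosome traffic, 2.58-fold higher. Tmem176b, a membrane protein of myeloid cells, stood at 215 and 87.5 CPM (2.46-fold, 1.93 to 3.14).

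MHC class II genes were higher in P-III as a sum, with all but 1 of the tested members short of 2-fold. Of 12 tested, 1 was called higher and none lower (background 1.11% higher), with a median log2 ratio of 0.73, and the sum stood at 26536 CPM in P-III and 16725 CPM in P-I (ratio 1.59, 1.56 to 1.62). H2-Aa was 1.72-fold higher (1.64 to 1.80), Cd74, the invariant chain, 1.62-fold (1.56 to 1.67), and H2-Ab1 and H2-Eb1, 2 other chains chosen after their values were seen, 1.75-fold and 1.88-fold. H2-DMb2, a chain of the peptide loader H2-DM, was the called member at 2.03-fold (1.42 to 2.91). Ciita, the transactivator of these genes, stood at 180 CPM in P-III and 127 CPM in P-I, 1.42-fold (1.12 to 1.78, likewise chosen after its value was seen). The 3 tested enzymes of antigen processing in the list, Ctss, Lgmn and Ifi30, also chosen after their values were seen, had ratios of 0.91, 0.95 and 0.98. The protein tag of MHC II is part of the gates, so the RNA difference is not independent of how the cells were picked.

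Of 13 DC genes tested, 5 were called higher and none lower (background 1.11% higher). In G1 cells 0 of the 10 that could be tested were called (background 0.824% higher), a count that this share gives for so few genes. Over all phases the sum stood at 2524 CPM in P-III and 1801 CPM in P-I (ratio 1.402, 1.32 to 1.49). Kmo, kynurenine 3-monooxygenase, was 3.31-fold higher (2.09 to 5.40), Clec10a, a galactose-binding lectin related to CD301b, 2.40-fold (1.75 to 3.31), though 0.850-fold in cells thinned to 1000 UMIs, and Cd209a, a DC-SIGN family lectin, 2.22-fold (1.46 to 3.38), or 3.82-fold without clusters 11, 14 and 15. Cd24a, a glycosylated surface protein, stood at 195 and 88.9 CPM (2.19-fold), and Batf3, a transcription factor known from cDC1, at 292 and 143 CPM (2.05-fold, 1.68 to 2.49). Batf3 was the 1 called member of 21 tested monocyte and DC transcription factors, with Spi1 (PU.1) at 518 and 531 CPM. Mgl2 itself, the RNA of CD301b, was counted 27 times in P-III and 35 times in P-I (1.46-fold, 0.85 to 2.47), a difference not detectable at this depth. P-III ended at 20 CD301b tag counts, which 52 P-I cells exceeded, so the Mgl2 ratio is not independent of the gates. Among 10 C-type lectin genes 3 were called higher (background 1.11%), Clec10a, Cd209a and Clec4b1 (2.31-fold), and none lower. Of 4 tested cDC2 genes only Cd209a was called, and of 2 tested cDC1 genes neither, counts too small to show much by themselves. The summed cDC1 list was higher in P-III, at 978 against 630 CPM (ratio 1.55, 1.404 to 1.71). Its ratio was 1.53 in G1 cells, and 1.37 both in thinned cells and in clusters 0, 1, 3, 5 and 10. The summed cDC2 list had a ratio of 0.94 (0.85 to 1.03).

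Lipid genes were split. Pltp, phospholipid transfer protein, was 2.76-fold higher (2.06 to 3.73) at 157 against 56.65 CPM, and Stard4, a cholesterol carrier, 2.61-fold (1.58 to 4.43), yet the lipid handling list as a whole had 2 of 11 called higher and a sum ratio of 0.88. Of enzymes of sterol synthesis, Hmgcs1, which makes the precursor of mevalonate and whose promoter is shown above, was 2.30-fold higher, at 66.25 CPM in P-III and 28.7 CPM in P-I. Cyp51, a later enzyme of cholesterol synthesis chosen after its value was seen, was 2.27-fold higher (1.41 to 3.69).

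Other groups showed little or mixed difference, beside background shares of 1.11% called higher and 2.71% called lower. Of 13 genes for the GM-CSF receptor and its signalling, none was called higher and 1 lower, and the sum ratio was 1.01 (0.95 to 1.07), with the receptor chain Csf2ra at 187 and 143 CPM and Csf1r, the gene for CD115, at 273 and 304 CPM. The called gene was Csf3r, the G-CSF receptor (4.11-fold lower, 2.535 to 7.44), of which 38.5% of the P-I UMIs came from the 13 cells of clusters 11 and 15 (2.72-fold lower without them). Metalloproteinase genes had 2 of 6 called higher (Mmp12 and Adam8) and 2 lower, the neutrophil collagenase Mmp8 and gelatinase Mmp9, which had 77.5% and 86.3% of their P-I UMIs in those 13 cells (3.02-fold and 2.63-fold lower without them). Coagulation and matrix genes had 3 of 9 called lower (F13a1, Vcan and Hpse, heparanase), with a sum ratio of 0.66. Of the 16 lysosomal, 8 integrin, 4 Fc receptor, 13 glycolysis and 16 immediate early and heat shock genes tested, 0 were called in any list. At the background shares few or no calls are due in lists of 4 to 16 genes, so these counts alone show little. The lysosomal sum was 12570 CPM in P-III and 12584 CPM in P-I (ratio 0.999, 0.974 to 1.02). The mitochondrially encoded genes had a sum ratio of 0.85, with 0 of 12 called.

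**Figure D3:**
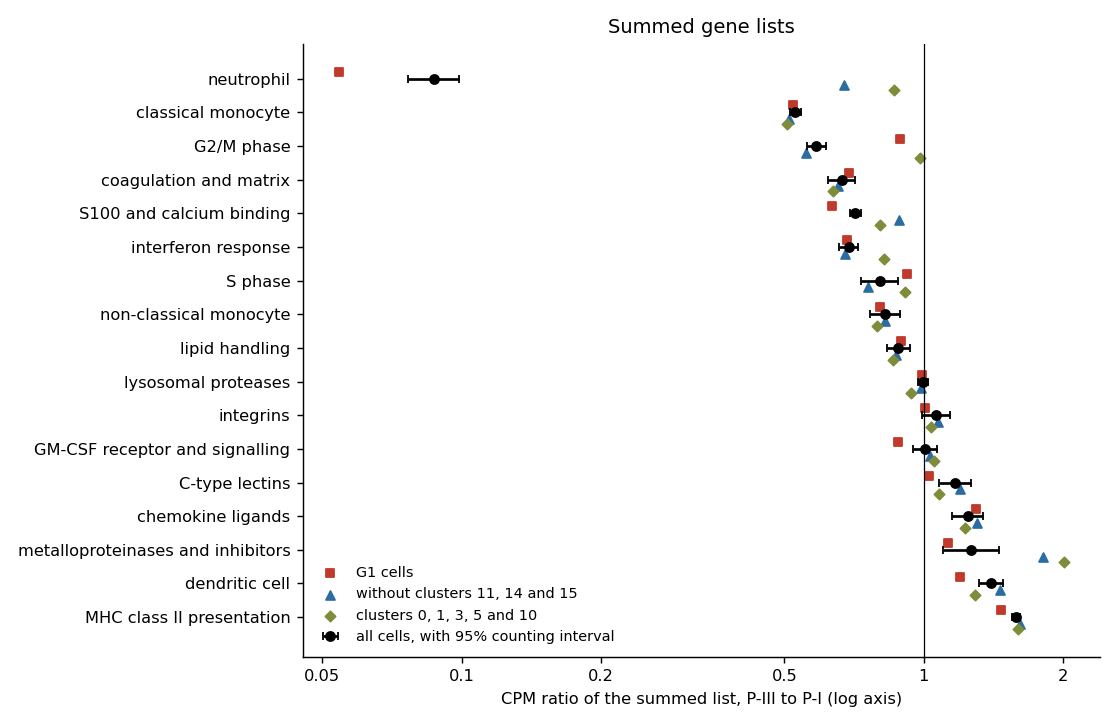
CPM ratio of the summed list, P-III to P-I (log axis), for 17 gene lists, with the 95% counting interval for all cells (black) and the values in G1 cells (red squares), without clusters 11, 14 and 15 (blue triangles) and in clusters 0, 1, 3, 5 and 10 (green diamonds). The neutrophil list moves from 0.09 to 0.67 without the 13 cells and the G2/M list from 0.59 to 0.89 in G1 cells, while the classical monocyte and MHC class II lists move little.

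The subsets differed in the cell cycle. By the deposited phases, G2/M held 10 cells of P-III (7.94%, 3.87 to 14.1%) but 44 of P-I (23.5%, 17.6 to 30.3%), whereas S held 30 (23.8%, 16.7 to 32.2%) and 32 (17.1%, 12.01 to 23.3%). Both together made 31.7% of P-III (23.7 to 40.6%) and 40.6% of P-I (33.5 to 48.1%), and these intervals overlap. Scored again on cells thinned to 1000 UMIs, they made 26.6% of P-III and 46.4% of P-I. S alone then held 20 of 124 P-III cells and 34 of 183 P-I cells, so its share was no longer higher in P-III. Of 39 tested G2/M genes 16 were called lower and none higher (background 2.71% lower, median log2 ratio -0.76, sum ratio 0.59). Among the 16 were Ube2c, a ubiquitin-conjugating enzyme of mitosis, at 110 and 280 CPM (2.55-fold lower), and Birc5, survivin, at 69.0 and 186 CPM (2.68-fold). Ccnb2, cyclin B2, was another, at 36.5 and 112 CPM (3.02-fold). Hmgb2, a chromatin protein with the most UMIs of the list, was not called, at 391 and 771 CPM. Of 17 S phase genes 1 was called, Tyms, thymidylate synthase, 3.06-fold lower, and the sum ratio of the list was 0.80 (0.73 to 0.88). Cells in G2/M had more UMIs, with medians of 9821.5 in P-III and 8868 in P-I.

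RNA clusters of the MoMacDC bundle, the monocyte, macrophage and DC cells that the authors clustered again, divided the subsets further. Cluster 1 held 71 P-III cells (56.3%, 47.2 to 65.2%) and 28 P-I cells (14.97%, 10.2 to 20.9%), and cluster 0 held 20 (15.9%) and 0. Cluster 2 held 4 P-III cells (3.17%) and 53 P-I cells (28.3%, 22.01 to 35.4%), cluster 7 held 3 and 30, and cluster 5 held 0 and 15. The G2/M cells lay in clusters 7 and 8 for all 10 such P-III cells and for 40 of the 44 P-I cells. P-I cells were spread over 11 clusters and P-III cells over 8.

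**Figure D4:**
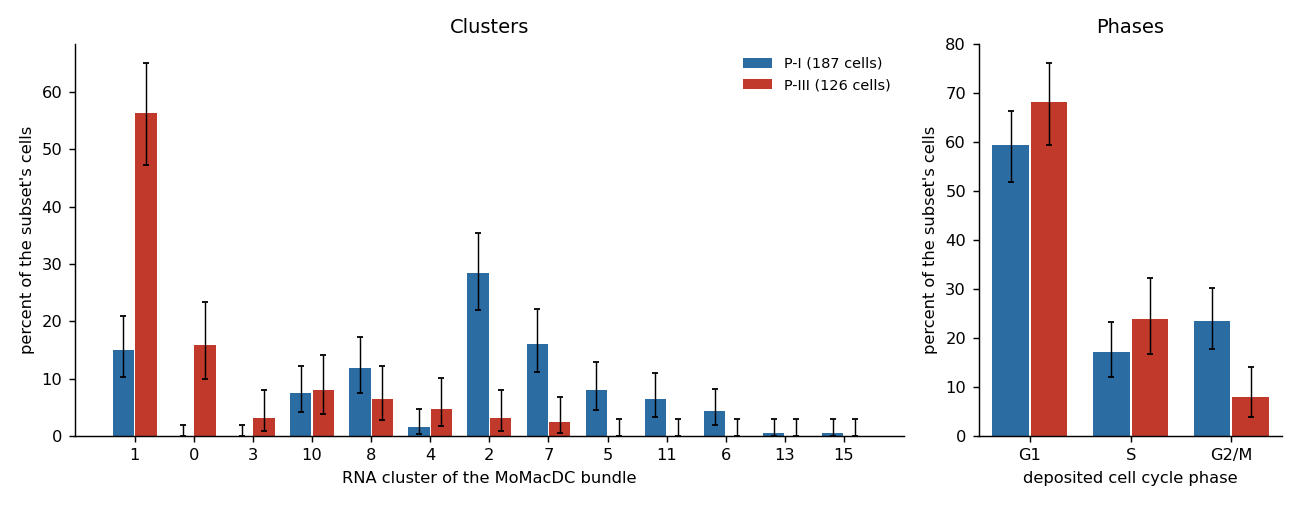
Percent of the cells of P-I (187, blue) and P-III (126, red) in each RNA cluster (left) and each deposited cell cycle phase (right), with exact 95% binomial intervals. Cluster 1 holds 56.3% of P-III and clusters 2 and 7 hold 83 of the 187 P-I cells, and G2/M holds 7.94% against 23.5%.

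The comparison was repeated in the cells that the authors had put in G1, 86 of P-III (483269 UMIs) and 111 of P-I (795385 UMIs). Of 3639 genes with 50 UMIs, 30 (0.824%) were called higher and 82 (2.25%) lower. Of the 58 genes higher over all phases, 35 had enough UMIs in G1, all 35 with the same direction and 21 still called. Of the 142 lower genes, 64 could be tested, all 64 with the same direction and 58 still called. Since G1 cells are part of all cells, this is no independent repeat. Mmp12 was 8.0-fold higher in G1 (5.065 to 13.7), Dok2 3.39-fold, Hmgcs1 3.18-fold, Dapk1 3.14-fold and Id3 2.82-fold (1.76 to 4.65). Cd200r1, at 3.34-fold, had fewer than 50 UMIs in G1 and could not be called. Odc1, the first enzyme of polyamine synthesis, was 2.53-fold and Slamf9, a SLAM family receptor, 2.45-fold higher. Fgfr1 was below the limit in G1, at 1.91-fold (1.07 to 3.46), but 3.57-fold higher in G1 cells outside clusters 11, 14 and 15. No DC gene of 10 tested was called in G1 (background 0.824% higher), a count that this share gives for so few genes. The DC list went from 1.402 to 1.20. In G1, P-III stood at 2487 CPM of it and P-I at 2069 CPM, against 2524 and 1801 CPM over all phases. All 12 P-I cells of cluster 11 were in G1, and they stood at 2781 CPM of this list. The cause of the shift was not tested. Kmo was 3.06-fold higher in G1 but had too few UMIs there to be called. Cd209a was 1.45-fold and Clec10a 1.70-fold higher in G1. In G1 cells outside clusters 11, 14 and 15 they were 2.51-fold and 1.87-fold higher. The ratio of the G2/M list went from 0.59 to 0.89, and that of classical monocyte genes was 0.52 against 0.53.

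Within cluster 1, which held the most P-III cells, 20 of 1791 genes (1.12%) were called higher in P-III and 6 (0.335%) lower. Id3 was 10.2-fold higher there (3.34 to 107), at 56 UMIs and 2 UMIs. Pltp was 2.82-fold and Clec10a 2.15-fold higher (1.18 to 4.53), and Chil3 was 4.81-fold lower (26 and 57 UMIs). Ly6c2 had 1 UMI in the 28 P-I cells of this cluster (5.39 CPM) and 113 CPM in the 53 P-I cells of cluster 2, although P-I cells were by their tag Ly6C+ in both. Dok2 (1.59-fold) was not called in cluster 1. Mmp12 (1.41-fold, 23 and 7 UMIs) and Cd200r1 (1.07-fold, 22 and 9 UMIs) had too few UMIs there to be called at any ratio. Of the 58 genes higher over all clusters, 19 could be tested in cluster 1, and 4 were called and 19 had the same direction. Of the 142 lower ones 10 could be tested, of which 2 were called and 8 had the same direction. Clusters were made from this RNA, so that these values describe the cells and test nothing.

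Since P-I held cells outside the P-III limits of the other tags, the 77 P-I cells within those limits of CD11c, MHC II and CD301b were also taken (580391 UMIs, median tags 143 for CD11c, 253 for MHC II and 90 for Ly6C). Against these, of 3796 genes, 40 (1.05%) were called higher and 45 (1.19%) lower in P-III. All 42 testable genes of the 58 and all 59 testable genes of the 142 had the same direction, and 21 and 36 were called. Mmp12 was 6.21-fold higher, Id3 3.19-fold, Dapk1 2.95-fold and Dok2 2.87-fold, Chil3 was 5.32-fold lower and Ly6c2 34.9-fold lower. The MHC class II list had a ratio of 1.26 instead of 1.59. This choice of cells was made after the data were seen.

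Set beside the other subsets, P-III lay between P-I and P-IV (313 cells) for several of these genes, without any order being tested, since subsets of 1 library are shared by these comparisons. Ly6c2 stood at 886 CPM in steady-state P-I, 130 in P-I after GM-CSF, 2.70 in P-III and 1.78 in P-IV, and Chil3 at 1843, 575, 50.03 and 19.1 CPM. H2-Aa went the other way, at 585, 2771, 4762 and 5589 CPM. Mmp12, with 0 UMIs in steady-state P-I, stood at 35.1, 187 and 363 CPM in P-I, P-III and P-IV after GM-CSF. Mgl2 was near P-I in P-III and high only in P-IV, at 25.1, 36.5 and 451 CPM. The CD301b tag was at most 20 counts in P-III and at least 21 in P-IV. The Mgl2 step between them is thus not independent of the gates. Fgfr1 had 18.6, 63.6 and 245 CPM in the same order. Id3 was highest in P-III, at 30.1, 118 and 53.8 CPM, and Stard4 was as well, at 20.1, 52.7 and 32.0 CPM. Irf7 stood at 177 CPM in steady-state P-I, 67.4 in P-I, 12.2 in P-III and 16.01 in P-IV. Of 32 genes that the study lists for P-IV, 28 could be tested. Of these, 15 were called higher and none lower in P-III against P-I (background 1.11% higher, median log2 ratio 1.04, sum ratio 1.89). The study derived that list from these same cells, so that the count is not independent evidence. The library and the treatment cannot be told apart in the comparison of steady-state P-I with the rest. The tag limits of P-I also differed between the libraries. Its lowest Ly6C count was 195 in steady state and 47 after GM-CSF, and its lowest CD115 count 21 and 84. The Ly6c2 step from steady-state P-I to P-I after GM-CSF is thus not independent of the gates.

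**Figure D5:**
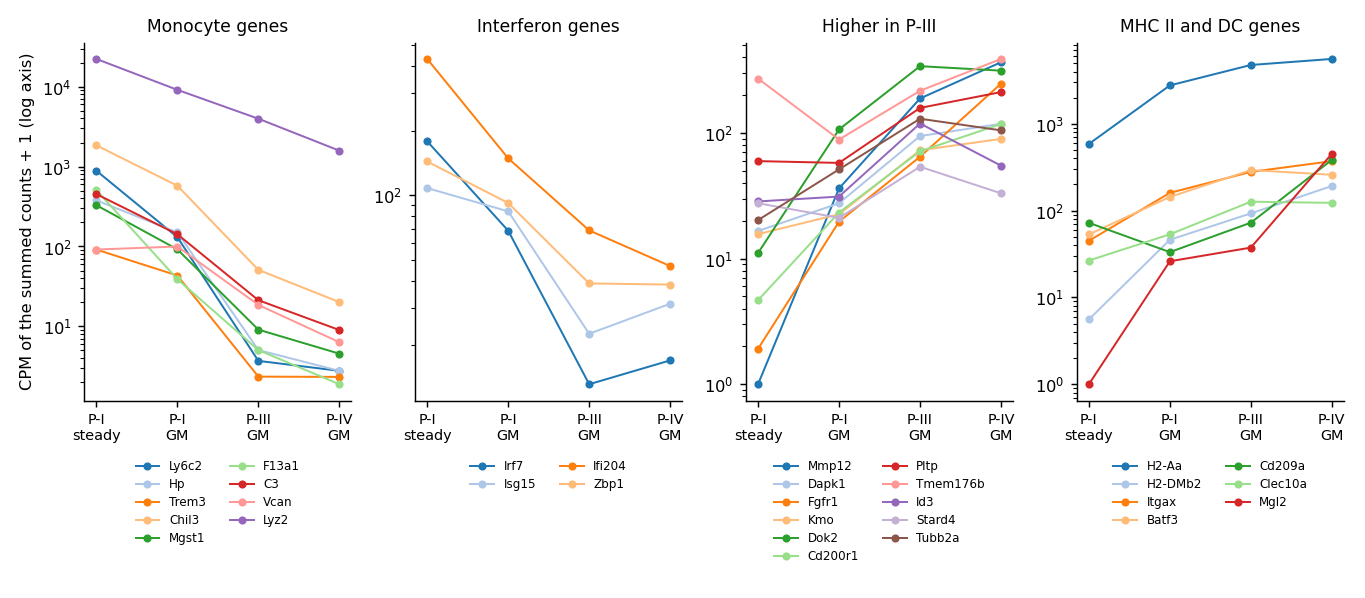
CPM of the summed counts plus 1 (log axes, each panel its own) in P-I of the steady-state library and, for the GM-CSF-treated library, in P-I, P-III and P-IV, 1 line per gene in 4 groups. Chil3 and Ly6c2 go down at each step shown, Mmp12 and H2-Aa go up, and Id3 peaks in P-III at 118 CPM. Mgl2, whose protein tag separates P-III from P-IV, stays low until P-IV at 451 CPM. The lowest Ly6C tag count of P-I was higher in the steady-state library than in the GM-CSF-treated one.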

How the data were processed

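RNA and antibody tags were deposited as raw counts per cell (UMIs per gene, counts for each tag). Cell Ranger 3.0.2, Seurat 3.6.0 and the mm10 genome stand in the submitters' processing notes. The mitochondrial share was deposited in percent, and the authors' S and G2/M scores have no unit. Subsets, clusters and phases were taken from the deposited cell table.

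Counts were summed per subset and genes with at least 50 UMIs kept. CPM carry exact Poisson intervals and ratios and shares exact binomial (Clopper-Pearson) ones, ratio intervals without the 0.5 counts. The rule was tested on simulated data. Doublets were called with Scrublet (exact neighbours, scanpy 1.11.5, 186 of 6804 cells, 2.73%) and kept. Python 3.11.15, pandas 2.3.3, numpy 2.4.6 and scipy 1.17.1 were used. Gene starts came from RefSeq, and no deposited column of per-sample values was left unused.

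Named were the 20 highest and 20 lowest ratios over all phases, the 10 highest and 10 lowest in G1, the RNA of the tag targets, and in each list of 5 or more measured genes up to 4 called members and up to 2 others by UMIs. A gene with 50% or more of its UMIs in 1 cell took no place among the highest or lowest and was given with that share. The members and lists were chosen with earlier results of these data known. CD11c had been taken as setting no boundary, which the tag values contradict. A few genes and the count of a sterol list are not reported here. Alternatives covered depth, doublets, scaling, minimum UMIs, clusters, phase and gates.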

Additional observations from a re-analysis of the deposited data

How the results depend on the processing

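No paired analysis was possible because there is 1 library per condition and no test was made. Of 122 named genes 73 were called, 21 of them under every alternative that gave a value. The 58 higher and 142 lower genes over all phases became 8 and 20 with cells thinned to 1000 UMIs, 178 and 336 at a minimum of 20 UMIs, 28 and 66 at 100, 1013 and 1115 with none, 30 and 82 in G1 cells, and 7 and 32 with the interval beyond 2-fold. Tighter gates gave 90 higher, clusters 0, 1, 3, 5 and 10 gave 20 lower. Of alternatives added after the data were seen, clusters shared by both subsets gave 120 higher, G1 cells outside clusters 11, 14 and 15 gave 30 and 69, and P-I cells within the P-III tag limits 45 lower. In G1 the 30 and 82 became 1 and 9 thinned, 157 and 235 at 20 UMIs, 7 and 24 at 100, 1261 and 1049 with no minimum, and 19 lower in clusters 0, 1, 3, 5 and 10. In cluster 1 the 20 higher became 147 at 20 UMIs and 13 in G1. Fewer UMIs, cells or genes enter most of these comparisons by construction.

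The summed ratio moved in G1 cells to 1.20 for DC, 0.0544 for neutrophil, 1.47 for MHC class II, 0.919 for S phase, 0.889 for G2/M and, from above to below 1, 0.990 for transcription factor genes. In clusters 0, 1, 3, 5 and 10 it was 1.29 for DC, 0.863 for neutrophil, 0.821 for interferon, 0.914 for S phase and 0.983 for G2/M genes, and the S or G2/M share of P-I was 31.6%. As a mean over cells it was 0.106 for neutrophil, 0.726 for S phase and 0.495 for G2/M genes. Thinned cells gave 0.626 for S phase and 0.456 for G2/M. The CD11c ratio was 1.41 per 10000 tag counts.

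The direction turned for 8 named genes, as the ratio of P-III to P-I. Tubb2a was 0.893 and Zbp1 1.11 within shared clusters, Clec10a 0.850 thinned, and S100a8 1.07 in G1 outside clusters 11, 14 and 15. Lyz1 was 0.857 without its top cell and 0.562 within shared clusters. Camp was 1.08 without doublets, 1.71 in clusters 0, 1, 3, 5 and 10, 1.07 without clusters 11, 14 and 15 and 1.02 without cells rich in neutrophil genes. Ngp was 1.29 without doublets, 1.54 without those clusters, 1.87 within shared clusters, 1.17 in G1 outside them and 1.52 without rich cells. Cenpa was 2.22 in clusters 0, 1, 3, 5 and 10, 1.33 in G1, and 1.24 within shared clusters and in G1 outside them. The causes were not tested. Depth limits genes near 50 UMIs most.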
